A study of Homo sapiens with 10 samples.

Results

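The 5 loci described here hold genes through which STAT3 is known to favour survival and proliferation: BCL2L1, MCL1, BCL3, PIM1 and CCND1. Each locus was taken as a fixed window of the genome around its gene, and a peak belonged to it when the peak's summit, the base of highest signal, lay inside the window. The windows were chr20:30230000-30330000 for BCL2L1, chr1:150520000-150580000 for MCL1, chr19:45200000-45290000 for BCL3, chr6:37110000-37170000 for PIM1 and chr11:69400000-69500000 for CCND1, in hg19. They span 410 kb in all and held 416 of the 879550 peaks in the 10 peak lists of the series. Peaks whose summit windows of 150 bp on each side overlapped were joined, across lists, into 99 sites. In RefSeq the nearest protein-coding neighbours are COX4I2 and TPX2 for BCL2L1, ADAMTSL4 and ENSA for MCL1, CEACAM16 and CBLC for BCL3, and FGD2 and TMEM217B for PIM1, and a peak in a window was not assigned to any gene.

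The series measured the binding of FOS, JUN, JUNB, NFKB1 and STAT3 by ChIP-seq in MCF10A-ER-Src, a human breast epithelial line with an oestrogen-receptor fusion of v-Src, whose kinase 4-hydroxy-tamoxifen switches on. Each factor had 1 library of non-transformed cells and 1 of cells transformed for 12 h with 1 µM 4-hydroxy-tamoxifen, and the library names inside the peak lists give ethanol at 36 h for the non-transformed cells. Every library comes from the same line, so that the fusion protein is also present in the non-transformed cells and the states differ in the ligand and, by these names, in the hours of culture. The libraries kept 4837474 to 22082403 reads after the authors' filter, and the lists held 13252 to 164605 peaks.

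With 1 library per group there is no replicate check and no test, so every difference below compares libraries. Intervals of single ratios cover counting error only. Intervals of shares and of a median ratio treat peaks as independent draws, although peaks are not replicates, and hold no spread between cultures. The NFKB1 library of transformed cells had 9674390 reads against 4837474 in non-transformed cells, and the STAT3 libraries had 8967267 and 10929003. The peak caller's estimated fragment length was 119 bp for STAT3 in transformed and 150 bp in non-transformed cells, which enters every STAT3 pileup because each read is extended to that length. The part of depth in the results was not tested. Scaled also by fragment length, the median STAT3 ratio given below was 1.98 in place of 1.57.

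STAT3 is a transcription factor that is phosphorylated downstream of cytokine receptors and Src-family kinases, dimerises and binds DNA. FOS, JUN and JUNB form AP-1 dimers, and NFKB1 encodes the p105 precursor of the NF-κB subunit p50; binding of these factors close together is common at inducible enhancers. BCL2L1 and MCL1 encode the anti-apoptotic BCL2-family proteins BCL-xL and MCL-1, BCL3 encodes an atypical IκB protein that works with p50 or p52 homodimers in the nucleus, PIM1 encodes a serine/threonine kinase, and CCND1 encodes cyclin D1, which drives cells through G1.

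RefSeq promoters are shown for BCL3, the locus with the densest NFKB1 peaks in non-transformed cells, and PIM1, the locus with the highest NFKB1 peak. They are the sequence before these genes and are not shown as the sequence under those peaks. The sites with the highest NFKB1 peak lay 11.7 kb (BCL3) and -21.7 kb (PIM1) from the centre of their windows. The promoter table (GRCh38.p14, 250 bases before to 50 after the start) had entries for 3 of the 5 genes, BCL3, PIM1 and BCL2L1, and none for MCL1 and CCND1. The lists are in hg19, so no peak was placed on these sequences. Capitals mark matches on either strand to a loose form of the NF-κB site (3 G, any 5 bases, 2 C), in the 250 bases before the start at chr19:44748458-44748707 (BCL3, plus strand) and chr6:37169902-37170151 (PIM1, plus strand). The last line holds the 30 bases of BCL3 at chr19:44748700-44748729, across its start, which hold 2 overlapping matches.
BCL3 promoter: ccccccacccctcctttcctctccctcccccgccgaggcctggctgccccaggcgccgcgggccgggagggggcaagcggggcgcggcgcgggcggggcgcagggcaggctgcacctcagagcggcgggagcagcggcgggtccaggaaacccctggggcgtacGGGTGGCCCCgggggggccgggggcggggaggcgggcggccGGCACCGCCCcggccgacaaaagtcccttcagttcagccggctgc
PIM1 promoter: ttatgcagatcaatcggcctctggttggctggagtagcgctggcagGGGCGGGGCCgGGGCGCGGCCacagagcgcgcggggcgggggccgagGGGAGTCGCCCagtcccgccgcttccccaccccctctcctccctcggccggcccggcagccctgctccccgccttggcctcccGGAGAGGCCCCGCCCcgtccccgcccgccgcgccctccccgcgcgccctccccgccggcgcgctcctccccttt
BCL3 start: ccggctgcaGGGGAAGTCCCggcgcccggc
The whole 300 bases held 4 matches for BCL3 and 7 for PIM1, some overlapping, and 0 in either of the 2 BCL2L1 promoters. At least 1 match was held by 58.7% of the 35116 promoters, so a match is common. TTCNNNGAA, the STAT site, was in 7.66% of all promoters and TGANTCA, the AP-1 site, in 7.71%, and neither was in any of the 4 promoters of these genes, which says only that these letters are not in these windows.

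STAT3 peaks were dense in these windows in both states. There were 34 STAT3 peaks in non-transformed and 49 in transformed cells, or 0.829 and 1.2 per 10 kb, which is 5.7 and 4.38 times the density of the whole STAT3 lists. NFKB1 had 12 and 49 peaks, at 6.5 and 4.76 times its whole-list density. The AP-1 factors had 44 and 65 peaks for FOS, 47 and 62 for JUN, and 24 and 30 for JUNB. Their densities were 2.13 to 4.14 times those of their whole lists. When FOS peaks under 2 pileup reads per 1000000 reads were left out, 7 remained before and 3 after transformation, so that the order of the FOS lists turned.

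The loci differed widely in density, as the plot of peak density by locus shows. For STAT3 the order in transformed cells was MCL1 at 3 peaks per 10 kb, BCL3 at 1.44, BCL2L1 at 0.9, PIM1 at 0.833 and CCND1 at 0.4. In non-transformed cells it was MCL1 at 1.83, BCL3 at 1.11, BCL2L1 at 0.9, PIM1 at 0.5 and CCND1 at 0.1. The order, over peaks of any strength, was therefore the same in both STAT3 lists. The neighbours BCL2L1 and PIM1 lay close in transformed cells, with 9 peaks in 100 kb and 5 in 60 kb. At CCND1 the STAT3 density was 0.687 times that of the whole list in non-transformed and 1.47 times in transformed cells, whereas at MCL1 it was 12.6 and 11 times. Many MCL1 peaks were weak. The median STAT3 fold enrichment there was 5.31 before and 6.01 after transformation, under the whole-list medians of 6.84 and 8.07. STAT3 peaks at a fold enrichment of 10 or above numbered 5 and 6 in the 60 kb of MCL1. The 90 kb of BCL3 held 7 and 9 such peaks. The lead of MCL1 over BCL3 thus came mainly from peaks under 10. In non-transformed cells a STAT3 pileup of 8 gave a fold enrichment of 4.77 at MCL1 and 5.6 at BCL2L1. The local background was thus higher at MCL1, and its part in the counts was not tested.

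**Figure D1:**
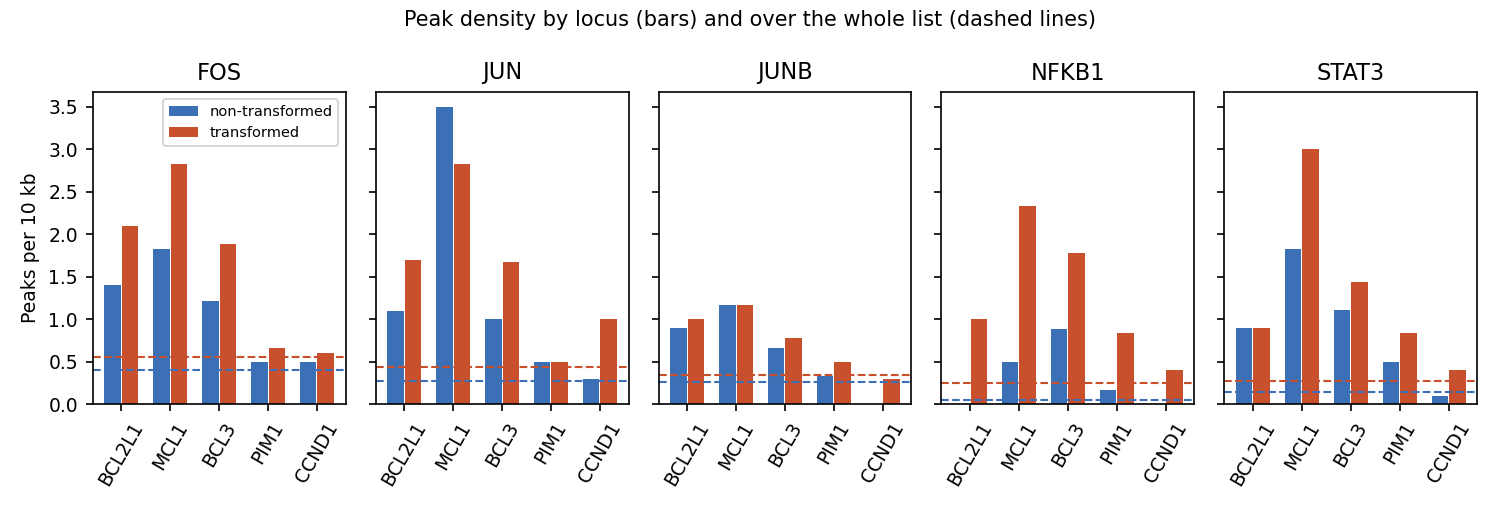
Peaks per 10 kb (y axis) at each locus (x axis) for the 5 factors, 1 panel each, with 1 bar per library and dashed lines at the density of the whole list of that library. Peaks of any strength are counted. MCL1 has the highest STAT3 bars, 1.83 and 3, and CCND1 the lowest, 0.1 and 0.4.

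All 5 loci had a STAT3 peak in each state. MCL1 held 35 sites, BCL2L1 25, BCL3 21, CCND1 11 and PIM1 7. In transformed cells 17 of the 99 sites carried peaks of all 5 factors, 7 of them at BCL3, 4 at BCL2L1, 3 at MCL1, 2 at PIM1 and 1 at CCND1. In non-transformed cells 4 did, 2 at MCL1 and 2 at BCL3, and these 4 were the sites with a peak in all 10 lists. The 7 at BCL3 lay between -0.194 and 32.6 kb from the centre of the window, and those at MCL1 between -25.1 and 27.4 kb.

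**Figure D2:**
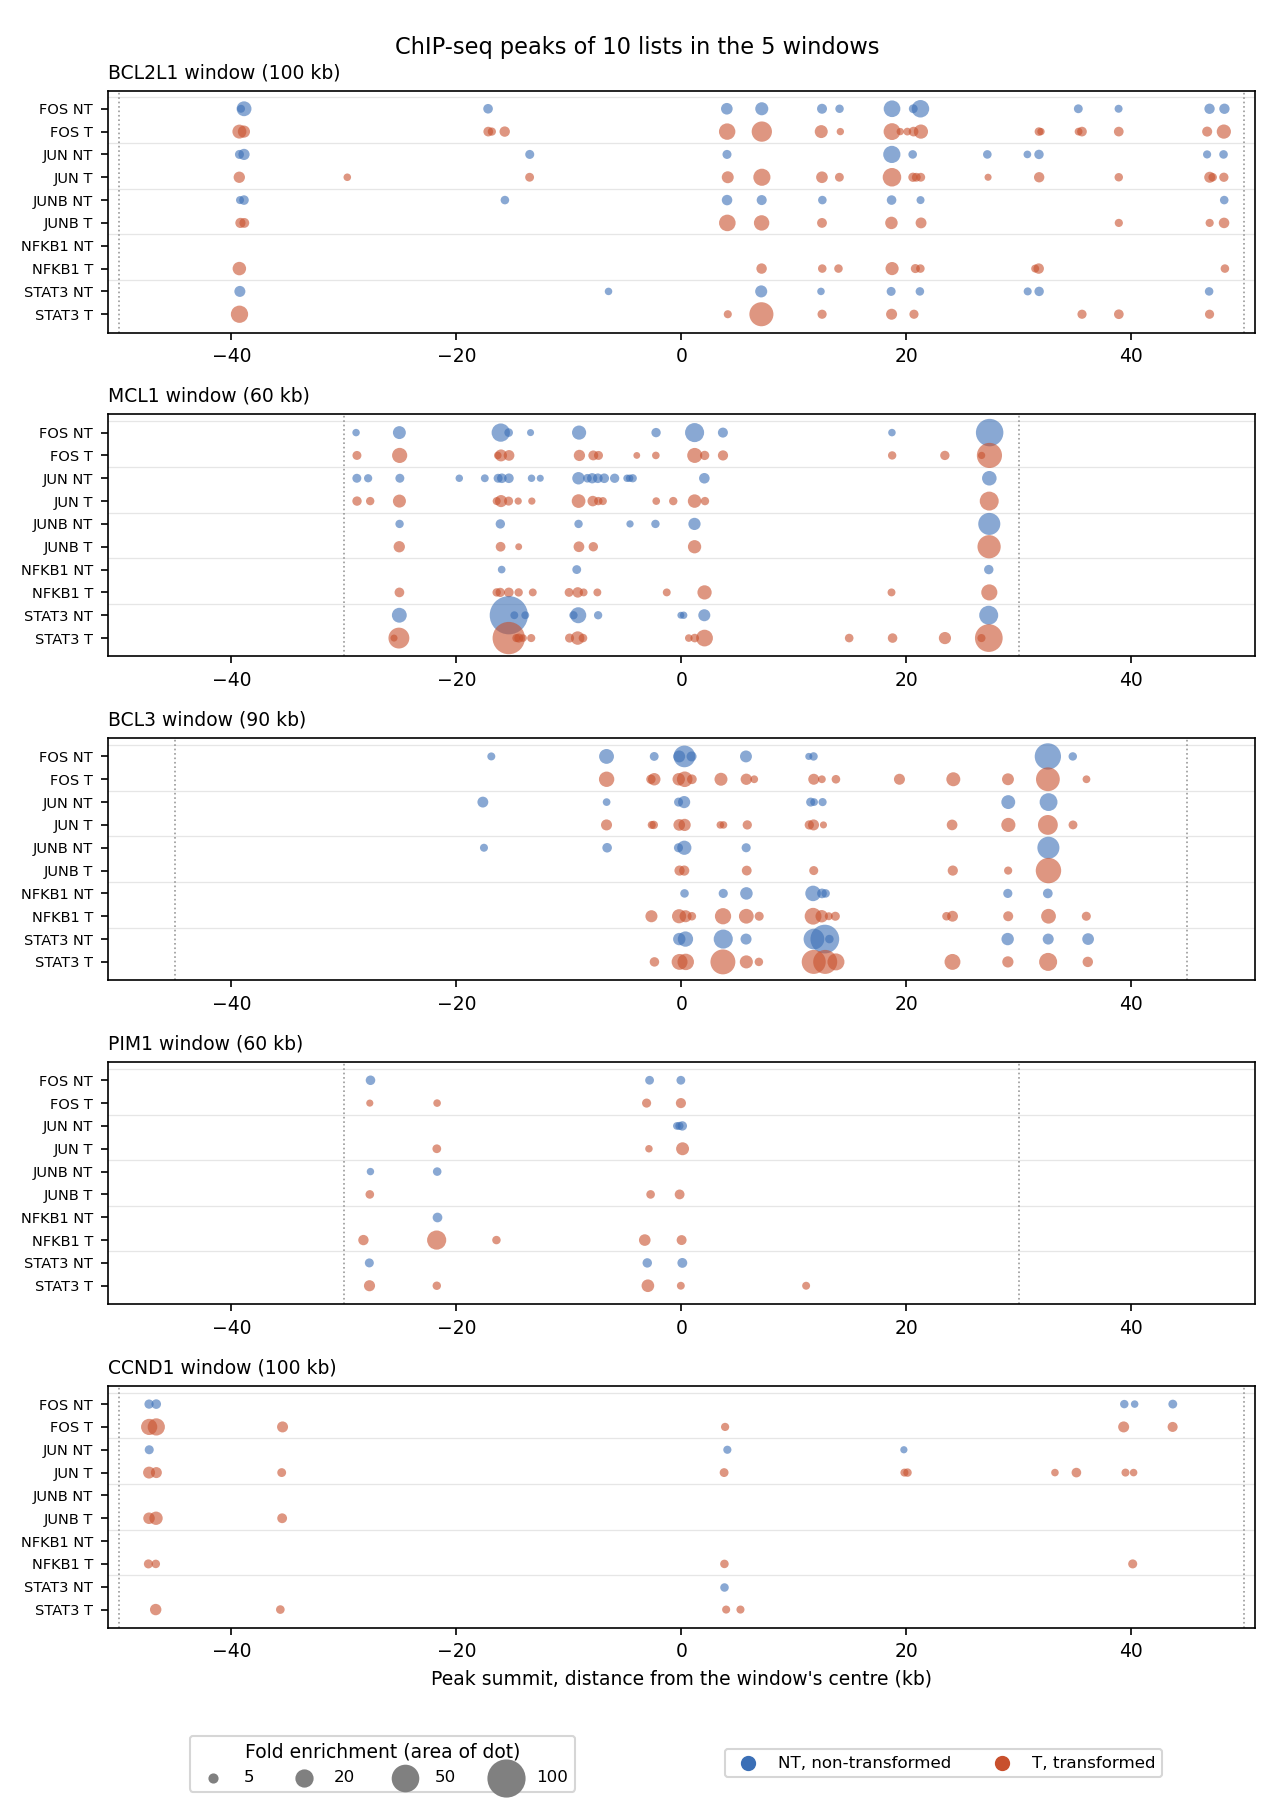
Summits of the 416 peaks in the 5 windows, by distance from the centre of the window in kb (x axis) and by library (y axis, NT non-transformed and T transformed), with the area of each dot proportional to fold enrichment and dotted lines at the window ends. NFKB1 has no dot at BCL2L1 and CCND1 in non-transformed cells, and the largest dots are the STAT3 peaks of MCL1, 112.3 and 80.3.

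The STAT3 peaks were compared first by presence in the other state. Of the 49 STAT3 peaks in transformed cells, 24 (49.0%, Wilson 95% interval 35.6 to 62.5%) had no STAT3 site in non-transformed cells, while 61.6% of the whole list did. Of the 34 in non-transformed cells, 9 (26.5%) had none in transformed cells, against 29.1% of the whole list. By locus the peaks of transformed cells alone numbered 11 of 18 at MCL1, 4 of 9 at BCL2L1, 4 of 13 at BCL3, 2 of 5 at PIM1 and 3 of 4 at CCND1. The share at BCL3 was the lowest, 30.8%. With both lists held to a stricter q-value, 7 of 23 STAT3 peaks of these loci (30.4%) were found in transformed cells alone, against 67.7% of the whole list.

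Peaks of 1 state were weak beside those of both states. Fold enrichment is the deposited ratio of the pileup (the extended reads over the summit) to the local background, each with 1 added. The 24 STAT3 peaks of transformed cells alone had a median fold enrichment of 5.72, and 20 of them were under 10, while the 25 that lay at a common site had a median of 13.9. The whole list gave medians of 6.67 and 13.1 for the same classes. The 4 peaks at 10 or above were at BCL3 (22.2 at chr19:45258757 and 19.4 at chr19:45269119), MCL1 (11.4 at chr1:150573448) and CCND1 (10 at chr11:69403261). The 9 peaks of non-transformed cells alone reached 6.84 at most.

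At the 25 STAT3 sites common to both states, signal was compared as pileup per 1000000 reads, the pileup divided by the reads of the library after filtering. The median ratio of transformed to non-transformed cells was 1.57 (order-statistic interval over sites 0.914 to 1.88), beside 1.68 over the 30809 common STAT3 sites of the genome. The ratio was above 2 at 7 of 25 sites, against 38.0% of all common sites, and under 0.5 at 0 of 25, which allows a share of up to 12%, against 1.47%. The counting interval of the single ratio lay above 1 at 8 sites, below 1 at 1 site and held 1 at 16. These intervals were not counted over all common sites, whose median ratio of 1.68 was itself above 1, so the 8 show no gain particular to these loci. The other factors had medians of 0.976 for FOS (41 sites), 1.05 for JUN (34), 1.02 for JUNB (18) and 1.00 for NFKB1 (12), beside 0.937, 1.29, 0.957 and 1.00 over their own common sites. By fold enrichment, which is not divided by the reads of the library, the JUNB and NFKB1 medians over all common sites were 1.26 and 1.63. A higher JUNB or NFKB1 fold enrichment in transformed cells thus does not by itself show a gain.

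**Figure D3:**
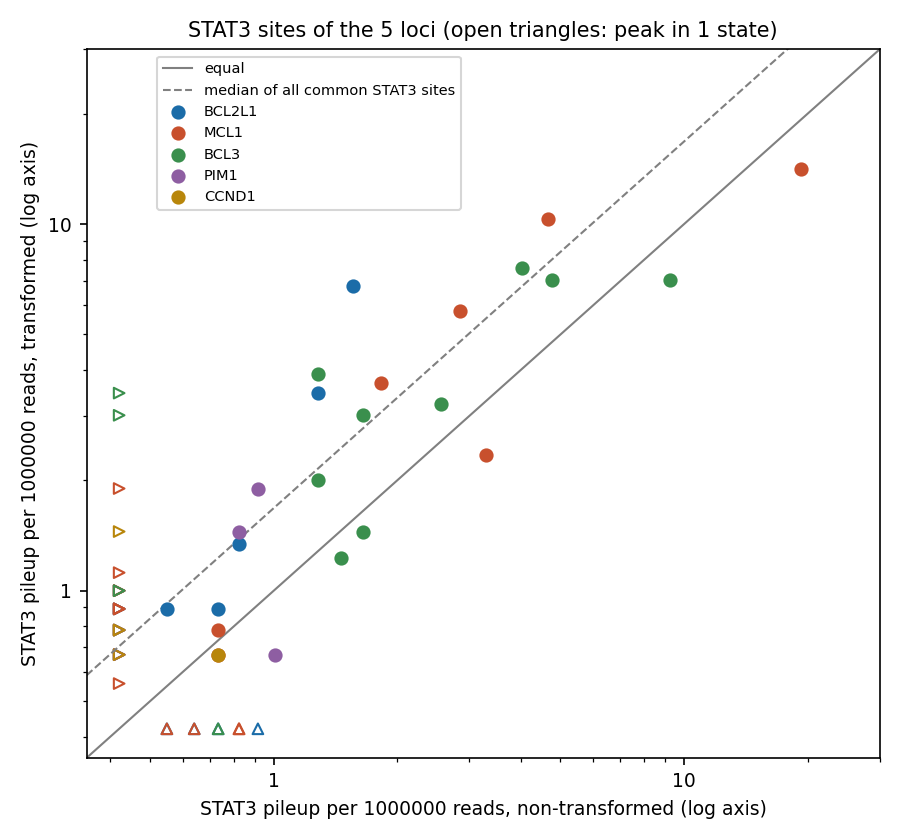
STAT3 pileup per 1000000 reads in non-transformed (x axis, log) and transformed cells (y axis, log) at the 25 common sites, coloured by locus, with open triangles along the edges for peaks of 1 state, which have no value on the other axis. The solid line marks equal values and the dashed line the genome-wide median ratio of 1.68, and the MCL1 point at 19.3 and 14.1 lies under both.

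The common STAT3 sites were also split by whether they had a JUNB site in transformed cells. This split was chosen after the values were seen and is a description. At the 18 sites with a JUNB site in transformed cells the median ratio was 1.63, and 15 of the 18 ratios were above 1. At the 7 sites without JUNB the median was 0.914, and 2 of the 7 were above 1. The ratios overlapped, running from 0.665 to 4.37 with JUNB and from 0.728 to 2.01 without. Over all common STAT3 sites the same medians were 1.81 with JUNB (24229 sites) and 1.22 without (6580 sites), so the lower ratio without JUNB was not particular to these loci.

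The 2 STAT3 sites with the highest fold enrichment in non-transformed cells, at MCL1 and BCL3, were among the 7 without JUNB. Of the sites at or above 3 pileup reads per 1000000 in non-transformed cells, the 3 with JUNB had a median ratio of 1.48 and the 3 without had 0.76, beside 1.55 and 1.02 over the genome. Under 3 pileup reads per 1000000 the medians were 1.63 for 15 sites with JUNB and 0.914 for 4 without, beside 1.83 and 1.29. The medians were thus lower without JUNB at both levels, but the ratios overlapped. At the higher level they ran from 0.711 to 2.2 with JUNB and from 0.728 to 1.88 without. At the lower level they ran from 0.665 to 4.37 and from 0.838 to 2.01. The part of the STAT3 level in the split was not tested.

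MCL1, whose short-lived product blocks the mitochondrial step of apoptosis, held the highest STAT3 peak of the 5 loci. At chr1:150534665 the STAT3 fold enrichment was 112.3 in non-transformed and 80.3 in transformed cells, from pileups of 211 and 126. Ranked by q-value the peak was number 2 of 42810 in the first list and number 13 of 80265 in the second. Pileup per 1000000 reads was 19.3 and 14.1, a ratio of 0.728 (0.579 to 0.912), and this was the site whose interval lay below 1.

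The other factors were modest at this MCL1 site. FOS had fold enrichments of 5.72 and 8.84 and JUN 7.13 and 6.29 in non-transformed and transformed cells. NFKB1 had a peak in transformed cells only, at 7.21, and JUNB had none in either state. In the FOS lists the peak stood at the 25.1 and 54.2 percentiles of fold enrichment, so the STAT3 peak near the top of its list lay on AP-1 peaks of middle or low rank. With the pileup also divided by the fragment length the STAT3 ratio was 0.917.

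A second MCL1 site, at chr1:150577341 to chr1:150577424, had peaks in all 10 lists and strong AP-1. FOS was 58.0 and 48.6 in non-transformed and transformed cells, JUN 16.3 and 27.6, JUNB 37.4 and 41.5, NFKB1 6.78 and 19.9, and STAT3 27.7 and 59.0. The STAT3 ratio was 2.20 (1.54 to 3.16), while the FOS ratio was 0.765 (0.584 to 1). STAT3 was thus higher in transformed cells at a site where FOS was not. The ratios stood at the 67.9 and 32.1 percentiles of all common STAT3 and FOS sites. The medians over those sites, 1.68 and 0.937, lay on the same sides of 1.

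STAT3 was also higher at chr1:150524890, a 5-factor site in transformed cells, where the fold enrichment was 17.0 and 33.5 and the ratio 2.04 (1.29 to 3.3). There FOS was 12.8 and 17.7, JUN 6.18 and 13.1, JUNB 5.4 and 9.86, and NFKB1 absent and 7.23. The third 5-factor MCL1 site, with a STAT3 summit at chr1:150540787 in transformed cells, had a peak in all 10 lists and went the other way. Its STAT3 values were 19.6 and 13.9, with a ratio of 0.711 (0.394 to 1.25) whose interval held 1.

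The site at chr1:150552049 to chr1:150552108, named after its values were seen, had STAT3 in both states and no JUNB. STAT3 was 11.1 and 21.5, a ratio of 2.01 (1.12 to 3.7), and NFKB1 was absent in non-transformed cells and 15.6 in transformed cells. JUN was 8.59 and 5.41, at the 73.5 and 23.8 percentiles of its lists, and FOS was 6.67 in transformed cells only. It was 1 of the 2 sites without JUNB whose STAT3 ratio was above 1.

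MCL1 was the only one of the 5 loci with fewer JUN peaks in transformed than in non-transformed cells. JUN had 21 peaks in non-transformed and 17 in transformed cells although the whole list was longer in transformed cells, and its density was 12.6 and 6.55 times that of the list. At chr1:150533948, named after its values were seen, the FOS summit lay inside the deposited STAT3 peak of chr1:150534665 but 717 bp from its summit. FOS was 25.7 and 11.1, a ratio of 0.382 (0.225 to 0.629), while JUN was 7.12 and 11.2. Of the 21 JUN peaks of non-transformed cells at MCL1, 8 had no site in transformed cells (38.1%, whole list 21.0%), all under a fold enrichment of 10. Of the 17 in transformed cells, 4 had none in non-transformed cells (23.5%, whole list 49.3%). The part of the local background in these JUN counts was not tested. Of the 18 STAT3 peaks of transformed cells at MCL1, 12 had an AP-1 site, the lowest share of the 5 loci.

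BCL2L1, whose product BCL-xL holds pro-apoptotic partners in check, had the site with the highest STAT3 ratio. At chr20:30287109 to chr20:30287170 the STAT3 fold enrichment was 11.2 and 44.4 from pileups of 17 and 61, a ratio of 4.37 (2.52 to 7.99). That ratio stood at the 94 percentile of all common STAT3 sites. FOS was 13.1 and 31.6, a ratio of 2.20 (1.34 to 3.73), and JUNB was 7.76 and 18.3, a ratio of 1.81 (0.863 to 4.13). JUN and NFKB1 had no peak in non-transformed cells and 22.5 and 8.39 in transformed cells. FOS and STAT3 thus had a higher scaled pileup there in transformed cells, beyond counting error, while the JUNB interval included equal signal. JUN and NFKB1 had no value in non-transformed cells to compare.

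Away from this site the BCL2L1 STAT3 peaks were few and mostly weak. At chr20:30240714, a 5-factor site in transformed cells, STAT3 was 9.33 and 22.9, a ratio of 2.70 (1.39 to 5.49), with FOS at 4.92 and 15, JUN at 6.26 and 9.89, JUNB at 4.94 and 7.99 and NFKB1 absent and 14 at the peaks nearest the STAT3 summit. The FOS ratio there was 2.95 (1.31 to 7.49), while a neighbouring FOS peak at chr20:30241118 had a ratio of 0.59 (0.321 to 1.07). The 5-factor site at chr20:30298704 had stronger AP-1 than STAT3: FOS was 21.3 and 21.7, JUN 22.8 and 26.4, JUNB 7.05 and 12.0, NFKB1 absent and 13.3, and STAT3 6.22 and 9.32 with a ratio of 1.63 (0.628 to 4.37). The last 5-factor site, at chr20:30292524, had STAT3 of 4.36 and 6.45, with a ratio of 1.63 whose interval, 0.494 to 5.68, held 1. AP-1 levels thus did not order the STAT3 levels among these sites.

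BCL2L1 had 9 STAT3 peaks in each state, 5 at common sites. The smallest ratio, 1.22 (0.399 to 3.73), was at chr20:30326980. The 4 STAT3 peaks of transformed cells alone were led by chr20:30318913 at 7.17, which had FOS, JUN and JUNB peaks, and the 4 of non-transformed cells alone by chr20:30311825 at 6.84, with JUN only. All 9 STAT3 peaks of transformed cells had an AP-1 site. NFKB1 had 0 BCL2L1 peaks in non-transformed and 10 in transformed cells, or 0 and 1 per 10 kb, beside 0.045 and 0.251 over its whole lists. At the whole-list density of non-transformed cells, 0 peaks in 100 kb say little. The 10 peaks had a median fold enrichment of 5.94, under the whole-list median of 6.65.

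BCL3, the IκB-family partner of p50 and p52, was the locus where STAT3 and NFKB1 lay together most often. Of the 13 STAT3 peaks in transformed cells 12 had an NFKB1 site, and of the 10 in non-transformed cells 7 did. The window held 8 of the 12 NFKB1 peaks of non-transformed cells over the 5 loci, at 19.7 times the density of that list. Over the 5 loci 33 of 49 STAT3 peaks in transformed cells (67.3%, whole list 57.1%) and 10 of 34 in non-transformed cells (29.4%, whole list 18.9%) had NFKB1. Outside BCL3, 3 of the 24 STAT3 peaks in non-transformed cells had an NFKB1 site, all at MCL1.

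The 3 highest STAT3 sites of BCL3 lay within the same stretch of the window. At chr19:45256780 STAT3 was 33.0 and 44.3 with a ratio of 1.48 (1.01 to 2.17), and NFKB1 was 18.5 and 21.7, its highest values at BCL3. FOS was 5.47 and 9.31 there, JUN 4.55 and 9.34, and JUNB absent and 6.28. At chr19:45248703 STAT3 was 28.0 and 47.7 with a ratio of 1.88 (1.27 to 2.82), and NFKB1 6.44 and 20.3. Here AP-1 peaks were found in transformed cells only, FOS at 12.9 and JUN at 4.4, with no JUNB. In transformed cells NFKB1 stood at the 95.2 and 94.5 percentiles of its list at these sites, and FOS at the 56.5 and 69.4 percentiles.

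The site at chr19:45257768 had the second highest STAT3 fold enrichment of non-transformed cells in the 5 loci. STAT3 was 63.5 and 44.3 there, with pileup per 1000000 reads of 9.24 and 7.03 and a ratio of 0.76 (0.546 to 1.05). Its rank by q-value was 62 in non-transformed and 1963 in transformed cells. JUN was 5.12 and 3.85, FOS absent and 4.66, and JUNB absent in both states. NFKB1 was 5.64 in non-transformed cells. In transformed cells no NFKB1 summit window of 150 bp on each side overlapped that of STAT3, the nearest NFKB1 summit being at chr19:45257489. Its ratio to the NFKB1 peak of non-transformed cells at chr19:45257513 was 1 (0.404 to 2.7). The deposited NFKB1 peak of that nearest summit, at 11.9, ran from chr19:45257382 to chr19:45257842 and so held the STAT3 summit at chr19:45257800. About a kilobase away, chr19:45258757 had STAT3 in transformed cells alone at 22.2, with FOS at 5.69 and NFKB1 at 6.29 and no peak of any factor in non-transformed cells. A weak STAT3 peak of non-transformed cells alone, 5.6 at chr19:45258171, lay between the STAT3 summits at chr19:45257768 and chr19:45258757.

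AP-1 dominated at chr19:45277625, which had peaks in all 10 lists and the largest STAT3 ratio of BCL3. FOS was 53.1 and 43.5, JUN 24.5 and 30.2, JUNB 37.4 and 49.6, NFKB1 7.25 and 16.8, and STAT3 9.33 and 25. The STAT3 ratio was 3.05 (1.60 to 6.13), and the FOS ratio was 0.729 (0.537 to 0.988). As at the 10-list site of MCL1, STAT3 was higher in transformed cells where FOS was not. The ratios stood at the 84.3 and 27.8 percentiles of all common STAT3 and FOS sites.

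The remaining named BCL3 sites lay near the middle of the window. At chr19:45245398, also in all 10 lists, FOS was 36.1 and 18.6 with a ratio of 0.454 (0.292 to 0.695), JUN 11.4 and 11.5, JUNB 15.5 and 7.99, NFKB1 5.64 and 11.2 and STAT3 18 and 20.8 with a ratio of 1.26 (0.725 to 2.2). At chr19:45244850 FOS was 10.9 and 11.9, JUN 6.26 and 10.4, JUNB 6.35 and 7.99, NFKB1 absent and 15.4, and STAT3 11.8 and 19.4 with a ratio of 1.83 (0.971 to 3.52). At the first of these sites the JUNB ratio was 0.361 (0.166 to 0.755). FOS and JUNB were therefore lower in transformed cells there, while the STAT3 interval held 1. The FOS, JUNB and STAT3 ratios stood at the 4.44, 1.79 and 32 percentiles of all common sites of their factors.

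PIM1, a kinase that phosphorylates substrates of the cell cycle and of apoptosis, had weak STAT3 peaks and a strong NFKB1 peak. The highest STAT3 value was 12.3, in transformed cells at chr6:37137032, with 6.84 in non-transformed cells and a ratio of 2.07 (0.896 to 5.06). FOS was 5.94 and 6.38 at that site, and JUN, JUNB and NFKB1 had peaks in transformed cells only, at 4.29, 5.71 and 10.3. At chr6:37139962 STAT3 was 7.47 and 4.78 with a ratio of 0.665 (0.202 to 1.96), while JUN was 6.83 and 12.9, FOS 5.94 and 7.86, JUNB absent and 7.42, and NFKB1 absent and 7.59. The STAT3 intervals of both sites held 1.

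NFKB1 led at chr6:37118248, where its fold enrichment was 7.25 and 28.2 from pileups of 8 and 40, the highest NFKB1 value of the 5 loci. Its ratio per 1000000 reads was 2.50 (1.15 to 6.18), and the peak was number 1935 of 73822 in transformed cells. STAT3 had a peak in transformed cells only, at 5.45. FOS and JUN were also found in transformed cells only, at 4.42 and 5.88, and JUNB in non-transformed cells only, at 5.64. PIM1 had no STAT3 peak of non-transformed cells alone, and 3 of its 7 sites were found in transformed cells alone.

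CCND1, the G1 cyclin, had the fewest STAT3 peaks, 1 in non-transformed and 4 in transformed cells, and no JUNB or NFKB1 peak in non-transformed cells. The whole JUNB and NFKB1 lists of non-transformed cells had 0.256 and 0.045 peaks per 10 kb. The highest STAT3 value, 10 from a pileup of 13, was in transformed cells alone at chr11:69403261. FOS was 7.11 and 22.8 there, a ratio of 3.02 (1.57 to 6.29), and JUN, JUNB and NFKB1 were found in transformed cells only at 9.34, 13.7 and 5.59. An adjacent site without STAT3, chr11:69402670, had FOS of 6.57 and 20.2 with a ratio of 2.91 (1.46 to 6.32), which was named after its values were seen. FOS was thus higher in transformed cells at both sites of this end of the window. The common STAT3 site at chr11:69453992 had 5.6 and 5.02, from pileups of 8 and 6, and a ratio of 0.914 (0.261 to 3).

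**Figure D4:**
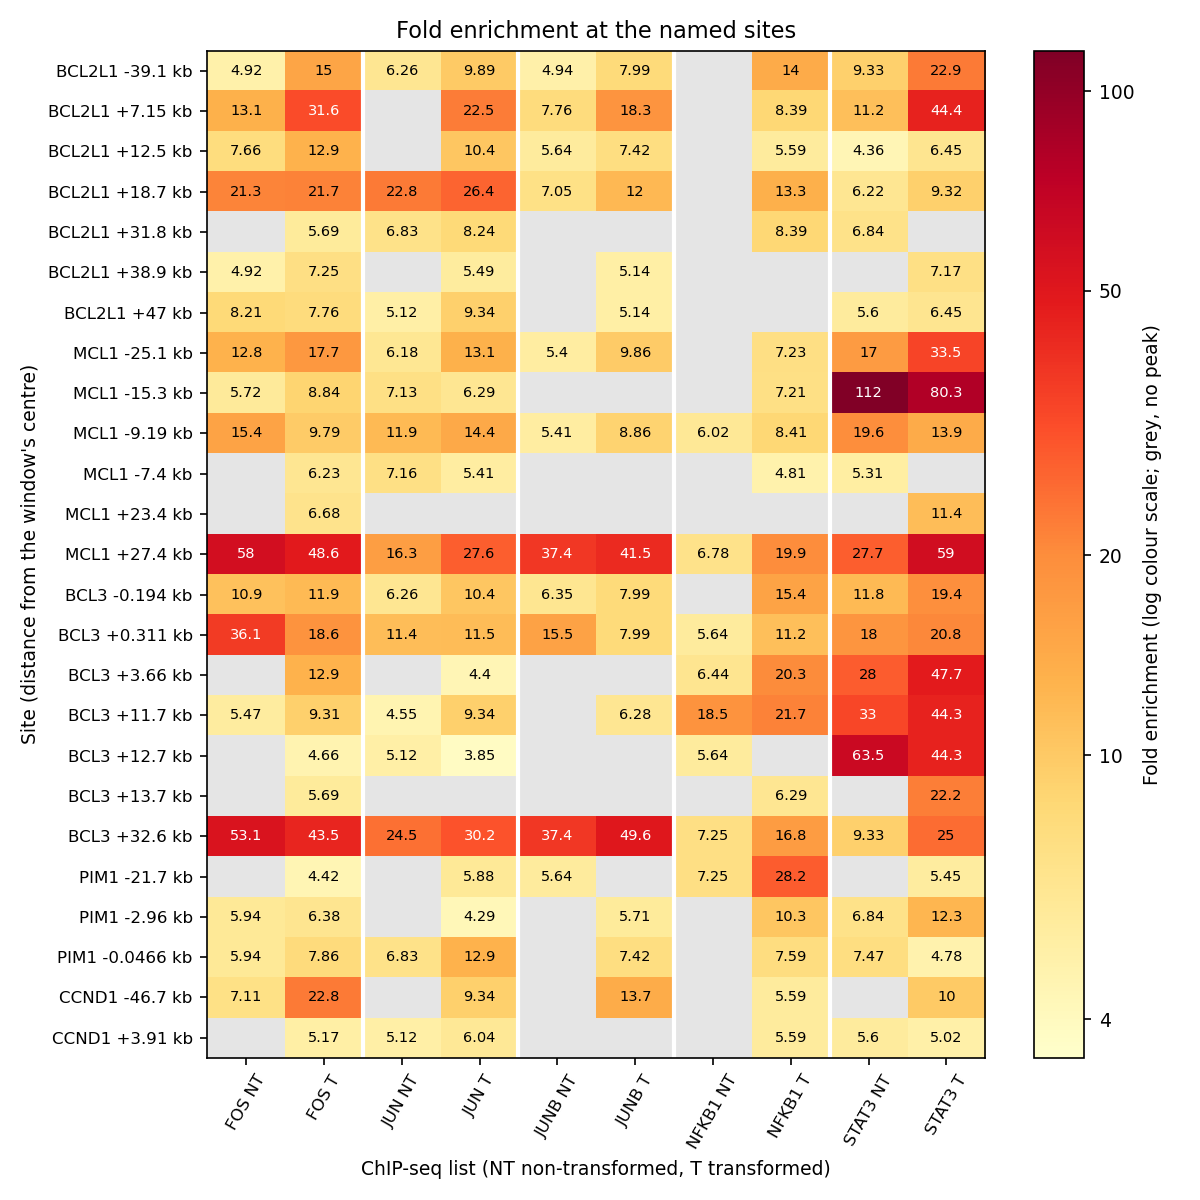
Fold enrichment (colour, log scale, with the value printed) at the named sites (rows, by locus and distance from the centre of the window) in the 10 libraries (columns), with grey where a list had no peak. Where several peaks overlapped, the one nearest the STAT3 summit is drawn, and the MCL1 row with 112 and 80.3 for STAT3 has no JUNB.

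Across the 5 loci most STAT3 peaks overlapped AP-1, at shares under those of the whole lists. An AP-1 site (any of FOS, JUN or JUNB) was present at 40 of 49 STAT3 peaks in transformed cells (81.6%, Wilson 95% interval 68.6 to 90%), against 87.8% of the whole list, and at 25 of 34 in non-transformed cells (73.5%), against 80.3%. All the other 4 factors were present at 17 of 49 (34.7%, 22.9 to 48.7%) and 4 of 34 (11.8%), against 45.7% and 13.7%. With all lists held to at least 2 pileup reads per 1000000 reads, 3 of 16 STAT3 peaks in transformed cells had AP-1 (18.8%, whole list at the same minimum 52.5%) and 2 of 16 all 5 factors (12.5%, 11.2%). Of the 24 STAT3 peaks of transformed cells alone, 9 lay on an AP-1 site already present in non-transformed cells, 37.5% against 62.8% of the whole list. By locus these were 3 of 4 at BCL2L1, 3 of 11 at MCL1, and 1 each at BCL3 (of 4), PIM1 (of 2) and CCND1 (of 3).

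For the other factors the shares found in 1 state were close to those of their lists or under them. FOS had 24 of 65 peaks of transformed cells without a site in the other state (36.9%, whole list 39.3%) and 5 of 44 of non-transformed cells (11.4%, 17.0%). JUN had 28 of 62 (45.2%, 49.3%) and 12 of 47 (25.5%, 21.0%), and JUNB 12 of 30 (40%, 44.8%) and 6 of 24 (25%, 25.6%). NFKB1 had 37 of 49 (75.5%, 83.8%) and 0 of 12, which allows a share of up to 25%, with 10.7% in the whole list. Of those 37 NFKB1 peaks, 15 had a pileup per 1000000 reads under 0.827, the lowest in the whole NFKB1 list of non-transformed cells, and the part of depth in the count was not tested.

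Summit distances were taken where STAT3 and a partner shared a site, which caps the distance by the definition of a site. Of the 8 medians, 7 were longer in these loci than over the genome, with no test. In transformed cells the median distance was 37 bp to FOS (37 pairs), 43 bp to JUN (33), 28 bp to JUNB (25) and 43 bp to NFKB1 (33), beside 25, 27, 27 and 31 bp over all such pairs of the genome. In non-transformed cells the medians were 62, 36, 44 and 51.5 bp, beside 38, 37, 38 and 41 bp.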

How the data were processed

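ChIP-seq of 5 factors was analysed in 10 libraries, 1 per factor and state, grouped by the labels. The authors called peaks per library with MACS 2.0.10.20131216 on uniquely aligned 36 bp reads, without a control. They kept 1 read at most at any position, took the local background over 1000000 bp, set the effective genome size to 2700000000 and cut at a q-value of 0.05. The submitters' processing notes name Bowtie and hg19. The deposited pileup is a signal, not scaled by depth. The deposited fold enrichment is the ratio of pileup + 1 to local background + 1. The deposited p-value and q-value columns are −log10 values.

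Peaks on chromosomes 1 to 22 and X were used. Sites are summits with 150 bp on each side, overlapping by at least 1 bp. Pileup was divided by filtered reads and given per 1000000, and ratios have exact Clopper-Pearson 95% intervals. The interval of a median is an order-statistic interval over sites, and the interval of a share is Wilson's. No test was run, with 1 library per group. Shares stand beside those of the whole list. The overlap functions were tested on simulated data. Calculations used Python 3.11.15, pandas 2.3.3, numpy 2.4.6 and scipy 1.17.1.

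The members and lists were chosen with earlier results of these data known. In each locus the text names the highest STAT3 site of transformed cells, the sites with all 5 factors in transformed cells (4 at most, by summed fold enrichment), the common STAT3 sites with the largest and smallest ratio, and the highest STAT3 peak of each state alone. Each factor is given there by the peak nearest the STAT3 summit among overlapping ones. Other sites were named for their values, as said beside them. The reference used is GRCh38, so gene annotation of peaks, sequence under peaks and a list of pathway genes were not analysed here.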

Additional observations from a re-analysis of the deposited data

How the results depend on the processing

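The shares and counts depended on the peak threshold more than on the definition of a site. With peaks at or above the median −log10 q-value of 9.41, STAT3 peaks of transformed cells alone fell to 30.4% (whole list 67.7%). With at least 2 pileup reads per 1000000, the share of STAT3 peaks with AP-1 was 18.8% and with all 5 factors 12.5% (whole list 52.5% and 11.2%). In the order non-transformed, transformed, the stricter q-value left 20 and 40 peaks for FOS, 10 and 23 for JUN, 5 and 16 for JUNB, 2 and 19 for NFKB1, and 16 and 23 for STAT3. The pileup minimum left 7 and 3, 3 and 4, 3 and 3, 2 and 8, and 8 and 16 in the same order of factors. Windows extended by 50000 bp held 90 and 121, 80 and 109, 49 and 60, 19 and 80, and 55 and 86. The median ratio was 0.815 for JUN after division by the genome-wide median, 1.34 for JUNB by fold enrichment, and 1.98 for STAT3 after scaling also by fragment length, an alternative chosen after seeing the data. Divided by the genome-wide median, the STAT3 median was 0.935 and the ratios of the MCL1 sites at chr1:150534665 and chr1:150577341 were 0.434 and 1.31, and those of the BCL3 sites at chr19:45248703 and chr19:45257768 were 1.12 and 0.454. Sites of 50 bp on each side, whole deposited peaks and windows shortened by 10000 bp moved no count or share past 1.5 times. Under the pileup minimum the order of states by peak count turned for FOS. No paired analysis was possible because each group has 1 library, and no library could be left out for the same reason. Low pileups, from 4 reads, limit the weak sites most.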
